A study of Mus musculus with 2 samples.

Results

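The neuronal and synaptic adhesion genes are 42 named genes whose proteins join one nerve cell to another or to its surroundings. They were named as a group by what their proteins do, with results of these data already known, and make up 42 of the 21779 protein-coding genes of the annotation (RefSeq, GRCm38.p6, which is mm10). The data are peaks of DLX2, a homeodomain transcription factor, mapped by CUT&Tag in maxillary process tissue of wildtype C57BL/6 embryos at E12.5, the embryonic day counted from the vaginal plug. CUT&Tag uses an antibody to bring a transposase to its target, and the DNA tagged there is sequenced. The 2 samples form 1 group, called replicate 1 and replicate 2. No control library or other genotype was used here, so a peak seen in both replicates is not thereby separated from background. The number of embryos behind each sample and their relation are not given in the sources used here, so the spread between replicates may be technical. Replicate 1 held 28061 peaks and replicate 2 held 62093, and 10921 regions were covered by a peak of each (shared regions). The lists give peak positions and no RNA levels, so the tissue was not checked against marker genes.

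Synaptic adhesion proteins sit on both sides of the contact between neurons and bind across the cleft, as neurexins do with neuroligins or teneurins with latrophilins. Others, such as contactins and IgLON proteins, are immunoglobulin-domain proteins of axons and neuronal surfaces. Several of their genes are among the longest of the genome and are known mainly from the nervous system, whereas the maxillary process is largely neural crest mesenchyme covered by epithelium, with growing nerve fibres. DLX2 itself acts both in the face and in the forebrain, where it is needed for inhibitory neurons to form and migrate.

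The 42 genes ranged from 6.02 kb (*Lrrtm2*) to 2271 kb (*Ptprd*), with a median of 747 kb against 17.6 kb for autosomal coding genes. Of them, 24 reached 500 kb and 7 were shorter than 100 kb. *Lrrtm1* lies inside *Ctnna2* and *Lrrtm3* inside *Ctnna3*, so the 42 extents merged into 40 stretches of 33.4 Mb. A longer gene holds more peaks by its size alone. For this reason peaks were counted per 100 kb, and each gene was set beside the 25 other autosomal coding genes nearest to it in length (genes of like length).

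Start sites were where sequence could be set beside the peaks. The promoter table of RefSeq listed 48 starts in 31 of the 42 genes. Of these, 2 genes had a peak that met the 300 bases around a listed start, both in replicate 2. The peak of *Nrxn3* only touched the edge of its window. The peak at *Ctnna3*, an alpha catenin that links cadherins to actin, had its summit 43 bp upstream of the start and a fold enrichment of 3.33. Its 250 bases before the start (GRCm38.p6, chr10:63429848-63430097, plus strand) are printed to show where the peak lay, with the 172 bases under the peak in capitals.
Ctnna3: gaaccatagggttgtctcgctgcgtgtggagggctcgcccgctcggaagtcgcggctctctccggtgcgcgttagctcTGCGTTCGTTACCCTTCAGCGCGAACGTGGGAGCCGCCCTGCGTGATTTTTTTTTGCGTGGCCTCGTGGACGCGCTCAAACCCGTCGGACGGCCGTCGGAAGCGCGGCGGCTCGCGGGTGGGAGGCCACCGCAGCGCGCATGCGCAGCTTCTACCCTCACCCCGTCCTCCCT
A window of *Tenm3* and a window of *Cntn4* are shown because they were the only member windows holding TAATTA, the core motif of homeodomain factors. Both windows precede internal starts, far inside the gene extents, and not the 5′ end of the gene. They lie at chr8:48674691-48674940 on the minus strand and chr6:106118692-106118941 on the plus strand, and the motif is in capitals. It began 246 bp before the start in *Tenm3* and 110 bp before it in *Cntn4*, and no peak of either replicate covered either window.
Tenm3: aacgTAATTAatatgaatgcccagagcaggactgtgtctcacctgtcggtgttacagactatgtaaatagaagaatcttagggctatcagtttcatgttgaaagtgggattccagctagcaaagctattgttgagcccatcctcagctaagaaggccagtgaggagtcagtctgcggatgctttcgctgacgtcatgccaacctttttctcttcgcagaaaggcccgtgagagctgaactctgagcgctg
Cntn4: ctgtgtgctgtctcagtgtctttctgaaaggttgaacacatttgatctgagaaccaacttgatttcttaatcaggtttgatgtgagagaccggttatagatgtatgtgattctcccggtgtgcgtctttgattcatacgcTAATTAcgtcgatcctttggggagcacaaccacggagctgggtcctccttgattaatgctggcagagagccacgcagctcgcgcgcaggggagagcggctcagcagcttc
One shared region covered all 60 bases of a microRNA hairpin, *Mir7226*, within *Ptprf*. The hairpin (chr4:118210505-118210564, minus strand) is printed in capitals throughout because the whole of it lay under the region.
Mir7226: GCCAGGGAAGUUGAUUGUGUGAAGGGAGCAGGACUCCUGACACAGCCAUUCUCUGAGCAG

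Peaks were sparse over these genes as a whole. Over the merged extents, replicate 1 held 227 peaks, or 0.680 per 100 kb (exact Poisson 95% interval 0.594 to 0.774), against 1.44 over all autosomal coding genes. Replicate 2 held 432 peaks, or 1.29 per 100 kb (1.17 to 1.42), against 3.27. Divided by the coding-gene density of its own replicate, the density was 0.472 in replicate 1 and 0.395 in replicate 2, a mean of 0.433 ± 0.0541 (SD, n = 2). The genes thus held fewer peaks per length than coding genes at large in both lists, although the lists differ 2.21-fold in length. Shared regions numbered 83, or 0.249 per 100 kb (0.198 to 0.308), against 0.514. These intervals cover counting error only.

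Very long coding genes of any kind held fewer peaks per 100 kb than short ones. Genes of like length were summarised by their means and by their medians. Counted gene by gene, the members held 228, 434 and 84 peaks or regions in replicate 1, replicate 2 and both. The means of like-length genes came to 282, 554 and 114, which gave ratios of 0.807 (0.706 to 0.919), 0.783 (0.711 to 0.860) and 0.735 (0.586 to 0.910). The medians of like-length genes came to only 200.1, 357 and 75.3, and against these the ratios were 1.14 (0.997 to 1.30), 1.22 (1.104 to 1.34) and 1.12 (0.890 to 1.38). A sum set against medians does not compare like with like, however. A few like-length genes with many peaks raise their mean above their median, so the sums from their own means also exceeded those from medians. The ratios above 1 thus do not show a density above that of like-length genes. Set median against median, the members had 0.544, 1.20 and 0.187 per 100 kb in replicate 1, replicate 2 and shared regions. Genes of like length had 0.674, 1.34 and 0.196. No interval was computed for these medians.

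The share of genes with any peak was close to that of genes of like length. A replicate 1 peak lay in 35 of the 42 genes (83.3%), against 84.1% of genes of like length and 31.9% of other autosomal coding genes. For replicate 2 the number was 39 (92.9%), against 93.5% and 50.3%. At least 1 shared region lay in 31 genes (73.8%), against 67.3% and 15.2%. Of the 42 genes, 18 lay above the median of their own 25 like-length genes in replicate 1 (42.9%), where 48.4% of like-length genes and 27.3% of other coding genes did so. In replicate 2 the number was 21 (50%, against 49.4% and 39.3%), and for shared regions it was 17 (40.5%, against 44.7% and 14.3%). These 2 kinds of count were thus close to those of like-length genes, although most long genes of any kind hold a peak, so the first kind can differ little. The sums against like-length means, in contrast, were lower with intervals below 1 in both replicates and in shared regions. These intervals take the like-length means as fixed. For *Lrp1b*, *Lsamp*, *Cntnap2* and *Ptprd* (2058 to 2271 kb) all 25 like-length genes were shorter, at 1125 to 1998 kb. The same 25 also stood beside *Nrxn3*, *Csmd1* and *Ctnna3*. What this adds to the lower sums was not tested.

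Single genes differed in how they stood against their own 25. In shared regions, 9 of the 42 exceeded at least 20 of the 25, or 21.4%, and 21.5% of like-length genes did so against theirs. Another 13 exceeded 5 or fewer, or 30.95%, against 34.6%, and 11 of these were genes with no shared region, which can exceed none. In shared regions, counts at both ends were therefore near those of genes of like length. In replicate 1, 21.4% exceeded at least 20 (against 22.5%), but 35.7% exceeded 5 or fewer (against 26.6%). Among genes with at least 1 peak, the latter shares were 19.0% against 10.7%. In replicate 2, 16.7% exceeded at least 20 (against 22.2%) and 26.2% exceeded 5 or fewer (against 23.6%). The 6 genes with most shared regions (*Dscam*, *Tenm3*, *Negr1*, *Tenm4*, *Csmd2* and *Ntm*) held 37 of the 83 regions, a number that follows in part from picking them by it. A further 25 genes held 1 to 3 regions and 11 held none. The 2 lists gave related orders, with a Spearman rho of 0.720 between replicate 1 and replicate 2 densities over the 42 genes, which are not independent replicates and share 2 libraries.

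**Figure D1:**
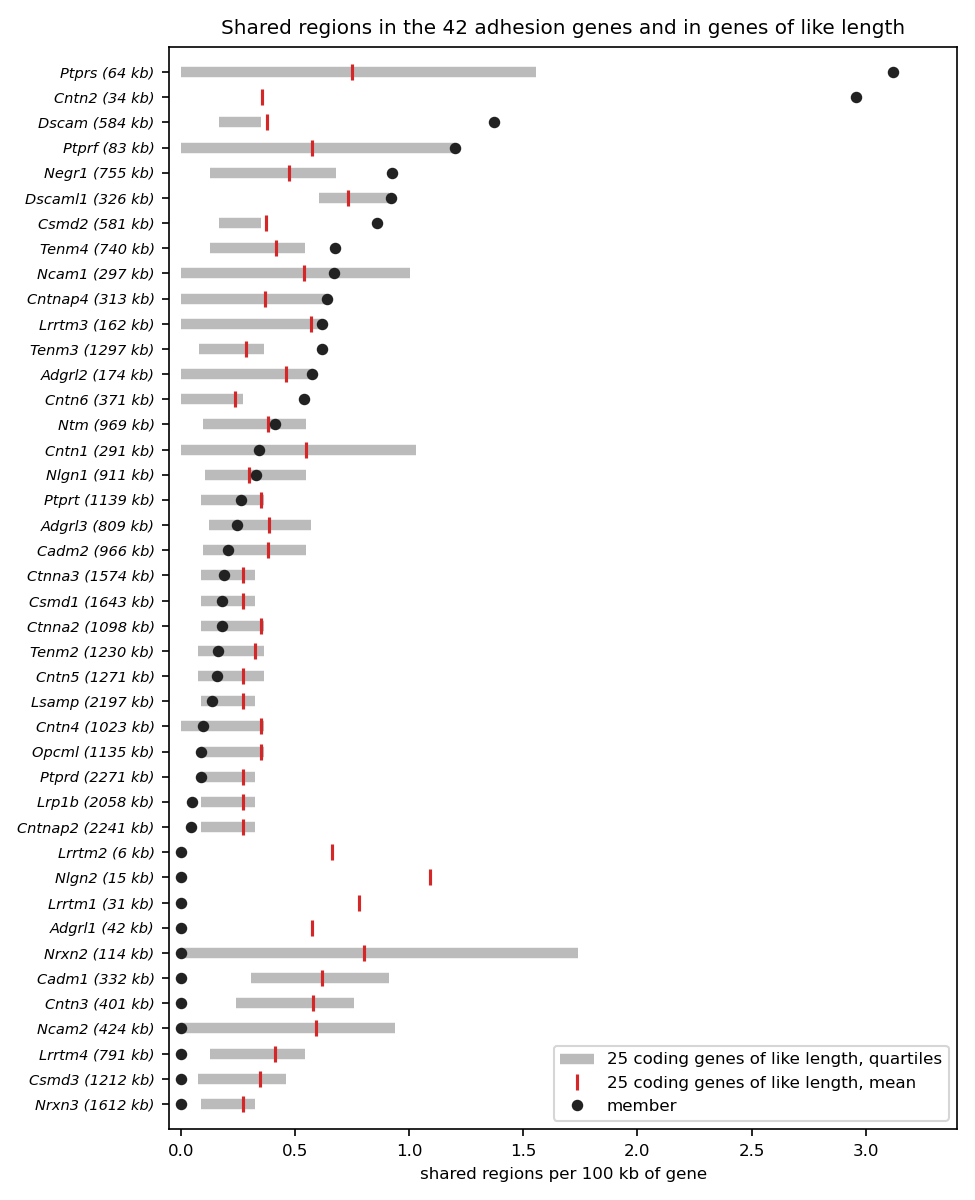
Shared regions per 100 kb (horizontal axis) in each of the 42 genes (black points), beside the mean (red line) and the quartiles (grey bar) of its 25 coding genes of like length, with gene lengths in kb. The points run from 0 in 11 genes to 3.12 in *Ptprs*, and those of *Dscam*, *Csmd2* and *Tenm3* lie to the right of their grey bars.

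The longest adhesion genes held fewer peaks per 100 kb than other coding genes of 800 kb or more. Lengths were not matched within that band. Its longest member, *Ptprd*, has 2271 kb, and the longest comparison gene has 1998 kb. The 19 members of 800 kb or more held 43 shared regions, or 0.161 per 100 kb (0.117 to 0.217), against 0.312 (0.275 to 0.353) in the other 74 coding genes of that size. In the same band replicate 1 gave 0.454 per 100 kb against 0.779, and replicate 2 gave 0.897 against 1.53. The lower density of the longest adhesion genes was thus present in each list. Between 400 and 800 kb the order was the other way, with 25 regions in 7 members, or 0.585 per 100 kb (0.378 to 0.863) against 0.490 in 238 other genes, a difference within the counting interval. From 100 to 400 kb the members had 0.504 (0.261 to 0.881) against 0.556. For the 7 genes under 100 kb the value of 1.46 rested on 4 regions (0.397 to 3.73) and stood beside 0.555 in other short genes.

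Neurexins are presynaptic receptors, and neuroligins and LRRTM proteins are their postsynaptic partners. Their 8 genes held 4 shared regions over 3642 kb, or 0.110 per 100 kb (0.0299 to 0.281), the lowest of the 9 role groups with all peaks counted but not under any of 3 filters on peak strength or a stricter overlap. These 4 regions were 0.316 of the number from like-length means. Of the 8 genes only *Nlgn1* and *Lrrtm3* held a shared region. *Nlgn1*, which codes for a neuroligin of excitatory synapses, had 5 and 7 peaks in replicates 1 and 2 and 3 shared regions over 911 kb, or 0.329 per 100 kb against a like-length mean of 0.298. The neurexin gene *Nrxn3* (1612 kb) had 4 and 12 peaks, none of them shared. The interval for its shared density reaches 0.229 per 100 kb, above the like-length median of 0.200. *Nrxn2* differed between the lists, with 0 peaks in replicate 1 and 7 in replicate 2 on 114 kb, or 6.12 per 100 kb in replicate 2. The LRRTM genes held few: *Lrrtm1* (30.7 kb) and *Lrrtm2* (6.02 kb) had no peak in either list, and *Lrrtm4* (791 kb) had 3 and 6 with none shared. *Lrrtm3* had 1 and 2 peaks and 1 shared region, which is also counted in *Ctnna3*. *Nlgn2*, the neuroligin of inhibitory synapses, had 0 and 1 peak on 14.7 kb. For genes as short as *Lrrtm2* or *Nlgn2* an empty extent says little, since 3 regions would already be 49.8 and 20.5 per 100 kb.

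Teneurins are large transmembrane proteins that bind latrophilins, the adhesion G protein-coupled receptors encoded by *Adgrl1* to *Adgrl3*. Together the 6 genes held 18 shared regions, or 0.419 per 100 kb (0.249 to 0.663), which was 1.20 times the number from like-length means. *Tenm3*, which guides the wiring of visual and hippocampal circuits, carried 13 and 26 peaks in replicates 1 and 2 and 8 shared regions on 1297 kb. Its shared density of 0.617 per 100 kb (0.266 to 1.22) exceeded 22 of 25 like-length genes, whose mean was 0.286. *Tenm4* held 14 and 25 peaks and 5 shared regions on 740 kb, or 0.676 per 100 kb (0.219 to 1.58) against 0.417. *Tenm2* was poorer, with 7 and 20 peaks and 2 shared regions on 1230 kb, or 0.163 per 100 kb. Among the latrophilins, *Adgrl1* (41.9 kb) had 1 and 2 peaks that did not meet, *Adgrl2* had 1 and 3 with 1 shared region, and *Adgrl3* had 4 and 7 with 2.

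Contactins are immunoglobulin-domain proteins anchored to the axon surface, and Caspr proteins (*Cntnap2*, *Cntnap4*) are their transmembrane partners. The 8 genes held 10 shared regions, or 0.168 per 100 kb (0.0807 to 0.309), 0.520 of the number from like-length means. *Cntn6* had 2 peaks in each replicate, and all met, giving 0.539 shared regions per 100 kb (0.065 to 1.95) against 0.237. *Cntnap4* had 5 and 4 peaks and 2 shared regions, or 0.639 per 100 kb, and like *Cntn6* exceeded 21 of 25 like-length genes. *Cntnap2*, one of the longest genes of the mouse genome at 2241 kb, had 5 and 9 peaks and 1 shared region, or 0.045 per 100 kb, and exceeded only 3 of its 25. *Cntn3* (401 kb) had 0 and 4 peaks. *Cntn2*, which marks early outgrowing axons, was singled out after its values were seen, with 2 peaks in each list and 1 shared region on 33.8 kb, a density of 2.96 per 100 kb whose interval ran from 0.075 to 16.5.

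The receptor tyrosine phosphatases of the LAR family (*Ptprd*, *Ptprf*, *Ptprs*) organise presynaptic terminals, and *Ptprt* belongs to a related family that binds its own kind. *Ptprs* on 64.1 kb held 4 and 6 peaks and 2 shared regions, or 3.12 per 100 kb (0.378 to 11.3), and *Ptprf* on 83.2 kb held 2 and 8 peaks and 1 shared region. Relative to coding genes in the same list, *Ptprs* was at 3.59 ± 1.04 and *Ptprf* at 2.30 ± 0.898 (SD, n = 2). *Ptprd*, with 4 and 7 peaks and 2 shared regions on 2271 kb, was at 0.108 ± 0.0198. Thus the 3 members of one family, with similar proteins, differed widely, and the one with few peaks per length was the long gene. *Ptprs* and *Ptprf* were singled out after their values were seen. *Ptprt* held 15 and 30 peaks on 1139 kb but only 3 shared regions, or 0.263 per 100 kb against a like-length mean of 0.350.

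CSMD proteins are very large membrane proteins with complement-control domains, and *Lrp1b* codes for a giant receptor of the LDL receptor family. In *Csmd2* there were 20 peaks in replicate 1 and 34 in replicate 2 on 581 kb, more per length than in all 25 like-length genes in each list. Its 5 shared regions gave 0.860 per 100 kb (0.279 to 2.01) against 0.374, above 21 of 25. *Csmd1* (1643 kb) held 12 and 19 peaks and 3 shared regions, whereas *Csmd3* (1212 kb) held 0 and 4 peaks and no shared region, so that 3 shared regions would be 0.248 per 100 kb. The related genes *Csmd2* and *Csmd3* were therefore at 2.09 ± 0.425 and 0.0504 ± 0.0713 of the coding-gene density (SD, n = 2). *Lrp1b* had 4 and 9 peaks and 1 shared region on 2058 kb, at 0.134 ± 0.000898 of the coding-gene density.

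DSCAM proteins are immunoglobulin-domain proteins that let neurites recognise and avoid their own kind. Their 2 genes had the highest density of the role groups when all peaks were counted, with 27 and 47 peaks in replicates 1 and 2 and 11 shared regions over 910 kb, or 1.21 shared regions per 100 kb (0.603 to 2.16). This was 2.39 times the number from like-length means. The rank depended on the filter. With a fold of at least 5 in both lists 1 region remained, or 0.110 per 100 kb. This was behind the teneurins and latrophilins (8 regions, 0.186), the IgLON genes (7, 0.138) and the alpha catenins (3, 0.112). With a −log10 q of at least 5 the density was second (1 region, 0.110), behind the IgLON genes (6, 0.119). It stayed first with a −log10 p of at least 7 (2 regions, 0.220) or at least 50% of each peak shared (5, 0.549). These ranks rest on few regions. *Dscam* (chr16:96587452-97171113) held 17 and 26 peaks and 8 shared regions on 584 kb, or 1.37 per 100 kb (0.592 to 2.70), against 0.378 in like-length genes, of which it exceeded 23. Its 8 shared regions became 1 at a fold of at least 5, a −log10 q of at least 5 or a −log10 p of at least 7, and 4 where at least 50% of each peak had to be shared. *Dscaml1* held 10 and 21 peaks and 3 shared regions on 326 kb, or 0.919 per 100 kb against 0.734, and had none at a fold of at least 5. Both genes lay above the coding-gene density in each replicate, at 1.69 ± 0.467 and 2.05 ± 0.113 (SD, n = 2).

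IgLON proteins (*Lsamp*, *Ntm*, *Opcml*, *Negr1*) are small surface proteins that shape neurite outgrowth and synapse number. Over 5055 kb they held 15 shared regions, or 0.297 per 100 kb (0.166 to 0.489), 0.869 of the number from like-length means. *Negr1* stood above the rest with 15 and 23 peaks and 7 shared regions on 755 kb, or 0.928 per 100 kb (0.373 to 1.91) against 0.476. *Ntm* held 13 and 22 peaks and 4 shared regions, but 3 of those regions lay side by side between 29484109 and 29485333 on chromosome 9. With regions within 5 kb counted once, the 83 regions became 81 loci, and the 3 in *Ntm* became 1. *Lsamp* (2197 kb) had 6 and 11 peaks and 3 shared regions, and *Opcml* (1135 kb) had 6 and 15 peaks and 1.

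The alpha catenin genes held 5 shared regions, or 0.187 per 100 kb (0.0608 to 0.437), with 2 in *Ctnna2* and 3 in *Ctnna3*. *Ctnna2* is the neuronal form, and its 4 and 5 peaks on 1098 kb left it at 0.196 ± 0.0804 of the coding-gene density (SD, n = 2). CADM and NCAM proteins are immunoglobulin-domain adhesion molecules, and NCAM is used widely as a neural marker. Their 4 genes held 4 shared regions, or 0.198 per 100 kb (0.0540 to 0.507). *Cadm1* had 0 and 1 peak on 332 kb and *Ncam2* had 1 and 0 on 424 kb, while *Ncam1* had 4 and 14 with 2 shared and *Cadm2* 2 and 4 with 2 shared. All of the replicate 1 peaks in *Cadm2* were therefore in both lists.

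**Figure D2:**
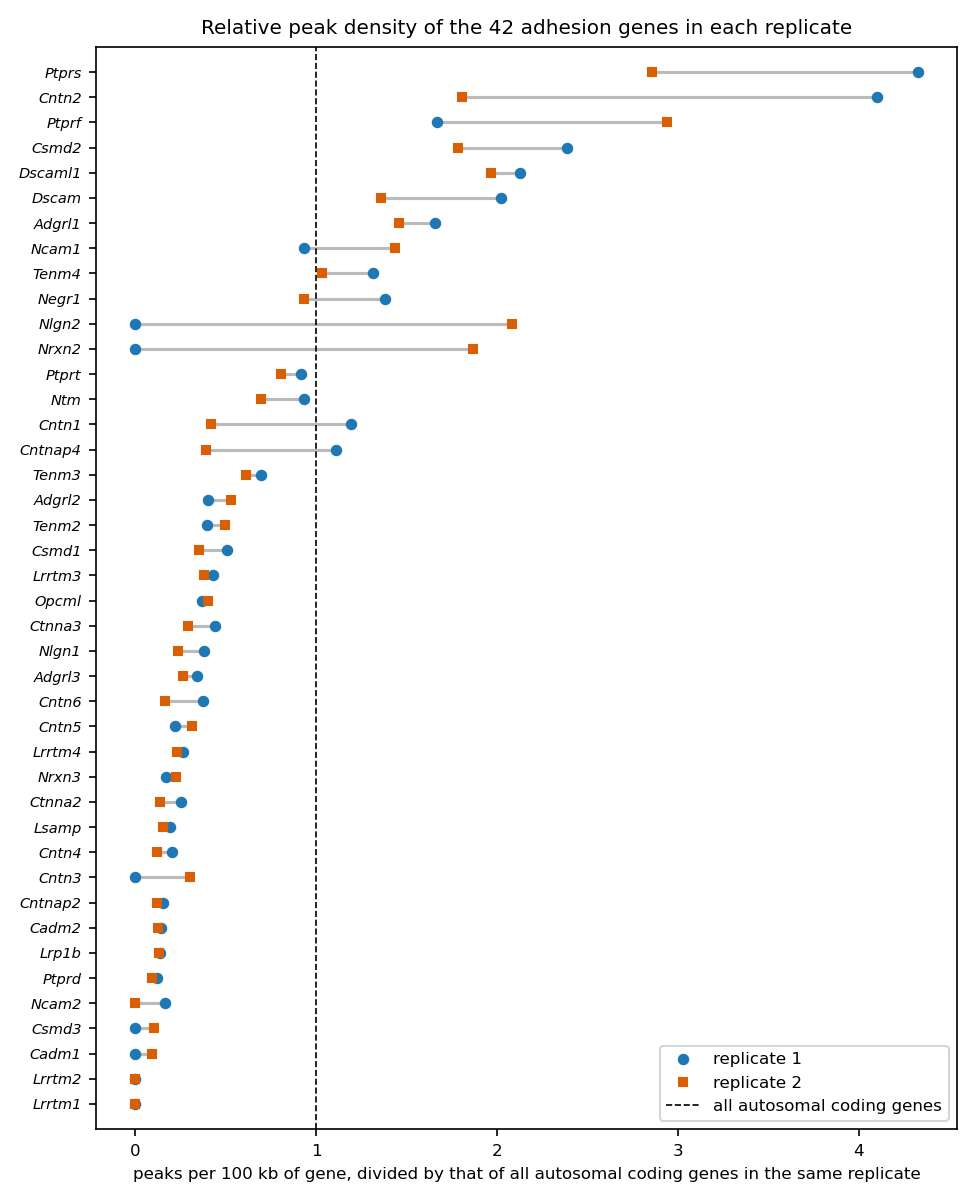
Peak density of each gene divided by the density over autosomal coding genes of the same replicate, for replicate 1 and replicate 2. Both points lie above 1 in 8 genes and below 1 in 28, and the other 6 genes lie on either side.

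Both replicates placed *Adgrl1*, *Cntn2*, *Csmd2*, *Dscam*, *Dscaml1*, *Ptprf*, *Ptprs* and *Tenm4* above the coding-gene density, or 19.0% of the genes, where 21.7% of like-length genes and 17.9% of other coding genes lay above it in both. The 28 genes below it in both made up 66.7%, against 62.4% and 53.3%. The 6 genes that changed sides were *Cntn1*, *Cntnap4*, *Ncam1*, *Negr1*, *Nlgn2* and *Nrxn2*, and for *Nlgn2* the whole difference was 1 peak. With tissue pooled from many cells, a site used in few cells and a site bound weakly in many cannot be told apart.

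The surroundings of each gene moved with its own density. For the 35 genes of 100 kb or more, peaks were counted in the 500 kb on either side. Other members were not taken out of these flanks. Those of *Lrrtm3* lie mostly within *Ctnna3*, and the facing flanks of *Opcml* and *Ntm* lie mostly within each other's gene. Spearman's rho between the density in the gene and in its flanks was 0.594 in replicate 1, 0.748 in replicate 2 and 0.495 for shared regions (n = 35 genes, in the same libraries). Among 2277 other coding genes of that size it was 0.497, 0.589 and 0.346. Pooled over the 35 genes, the density inside was 0.657 per 100 kb in replicate 1 against 0.980 in the flanks, 1.246 against 1.97 in replicate 2, and 0.240 against 0.411 for shared regions. The ratios of inside to flank, 0.671, 0.632 and 0.584, stood below those of other genes, at 0.917, 0.889 and 0.898. Inside, each gene weighed by its length, whereas every gene gave flanks of the same length. The longest genes therefore counted for more inside than outside. The adhesion genes are longer than the other genes, so these ratios do not compare like with like. Gene by gene, 17 genes were higher than their flanks and 17 lower in replicate 1, and 46.9% of the other 2277 genes were higher and 52.7% lower. In replicate 2, 15 were higher and 20 lower, against 48.1% higher and 51.7% lower among the others. For shared regions 12 were higher, 21 lower and 2 equal, against 38.1% higher and 58% lower. By this gene-by-gene count the adhesion genes were near other long genes. Their pooled ratios were lower, and how much of that came from the unlike weighting was not tested.

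*Dscam* lay in a neighbourhood rich in peaks and was close to it, at 2.91 per 100 kb inside against 2.80 in its flanks in replicate 1, 4.45 against 5.80 in replicate 2, and 1.37 against 1.90 in shared regions. *Nrxn2* matched its flanks in replicate 2, at 6.12 against 6.20 per 100 kb, and held no peak in replicate 1, where its flanks had 2.50. *Cadm1* differed from its surroundings in both lists, at 0 against 2.50 per 100 kb in replicate 1 and 0.301 against 4.90 in replicate 2. Base composition was not tested, since no genome sequence was used here.

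**Figure D3:**
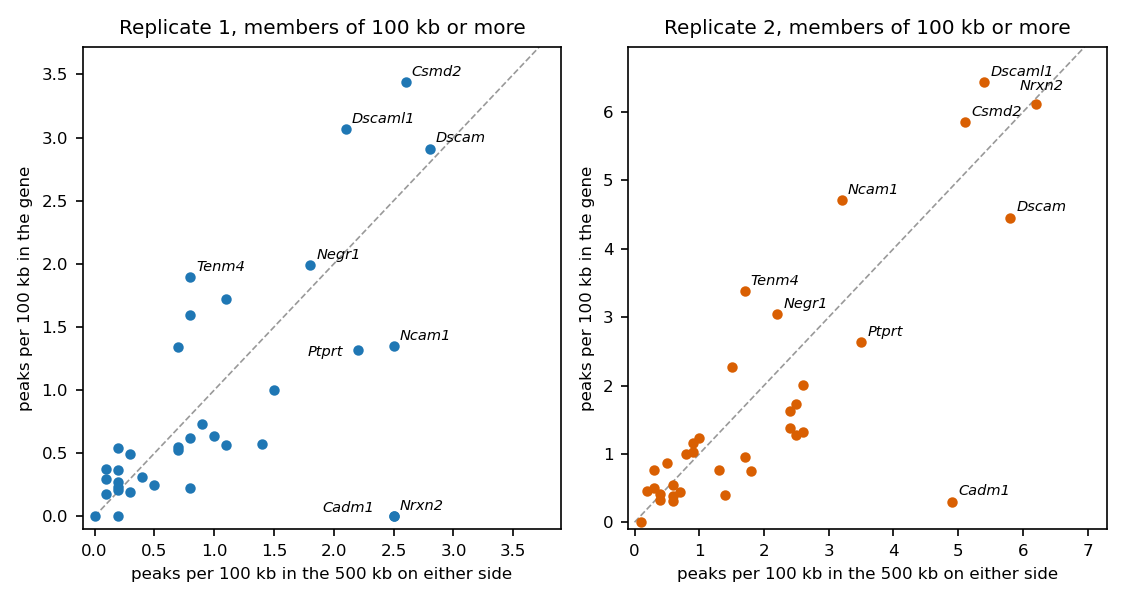
Peaks per 100 kb inside each gene of 100 kb or more (vertical axis) against peaks per 100 kb in the 500 kb on either side (horizontal axis), one panel per replicate, with the line of equality dashed. *Cadm1* lies far below the line in both panels, at 0 and 0.301 per 100 kb inside against 2.50 and 4.90 outside.

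Peaks in these genes recurred between the lists about as often as peaks in genes of like length. Among 227 peaks of replicate 1, 83 were met in replicate 2, or 36.6% (95% Wilson interval 30.6 to 43.0%), against 37.95% (35.9 to 40.1%) in genes of like length. Among 432 peaks of replicate 2, 82 were met in replicate 1, or 19.0% (15.6 to 22.9%), against 17.9% (16.8 to 19.1%). Each pair of intervals overlaps. In the 19 genes of 800 kb or more the shares were 35.5% (27.6 to 44.4%) of replicate 1 peaks and 17.6% (13.3 to 22.9%) of replicate 2 peaks, against 39.97% (36.1 to 43.9%) and 20.9% (18.6 to 23.3%) in other genes of that size, again with overlapping intervals.

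The shared regions themselves were of ordinary strength. Their median length was 132 bp, against 151 bp for all shared regions. Median fold enrichment was 5.05 in replicate 1 and 5.06 in replicate 2, beside 5.05 and 5.12 over all shared regions. A fold of 5 or more in both lists was reached by 31 of the 83, or 37.3%, against 35.1% of all. Fold and p together gave back the number of fragments at each summit, with a median of 6 (4 to 16) in replicate 1 and 11 (7 to 27) in replicate 2. Each region thus rested on few fragments, and a difference of 1 or 2 fragments moves its fold.

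**Figure D4:**
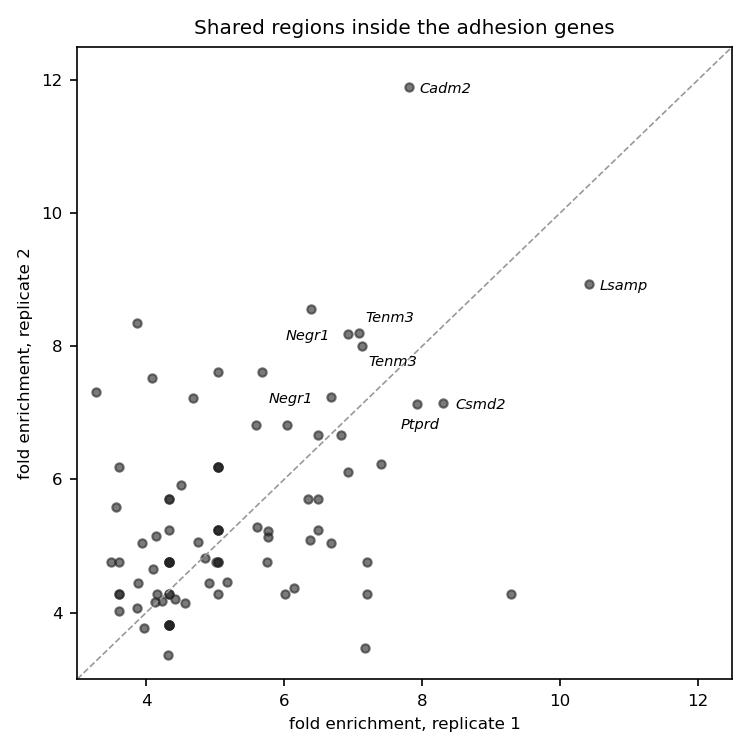
Fold enrichment of the 83 shared regions inside the adhesion genes, replicate 1 (horizontal axis) against replicate 2 (vertical axis), with the line of equality dashed and the 8 regions highest in their lower replicate named. Most points lie between 4 and 7 in both, and the regions in *Lsamp* and *Cadm2* lie farthest out.

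Ranked by the lower of its 2 folds, the first region lay in *Lsamp*, at chr16:41975052-41975563, where the folds of replicates 1 and 2 were 10.4 and 8.94, on 15 and 20 fragments. It also falls in the predicted gene *Gm52229*. Next came a region in *Cadm2* at chr16:67077296-67077603, with folds of 7.82 and 11.9 on 10 and 24 fragments. Both genes were poor in peaks for their length, so a strong region did not require a gene rich in regions. *Csmd2* followed with chr4:128273575-128274140, at 8.31 and 7.15 on 16 and 25 fragments, and *Ptprd* with chr4:76076227-76076353, at 7.93 and 7.14 on 10 and 14. *Tenm3* held 2 of the top 8, at chr8:48862556-48862699 (7.13 and 8.01) and chr8:48507431-48507914 (7.09 and 8.20), the first of which also lies in the long non-coding RNA gene *Gm19744*. *Negr1* held the other pair, at chr3:157116165-157116300 (6.92 and 8.19) and chr3:157201814-157202147 (6.68 and 7.24). The annotation used gives gene extents without exons, so exon, intron or UTR is not given for any of them.

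Of the 83 regions, 8 also lie in a further annotated gene outside the set or nested in it. One is the region at chr10:64059831-64059959, with folds of 6.39 and 8.57, in both *Ctnna3* and *Lrrtm3*, whose reads cannot be assigned to one gene by position. The region over the *Mir7226* hairpin printed above (chr4:118210453-118210616) had folds of 4.22 and 4.18 on 8 and 14 fragments, in the last part of *Ptprf*, and was chosen after its values were seen.

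**Figure D5:**
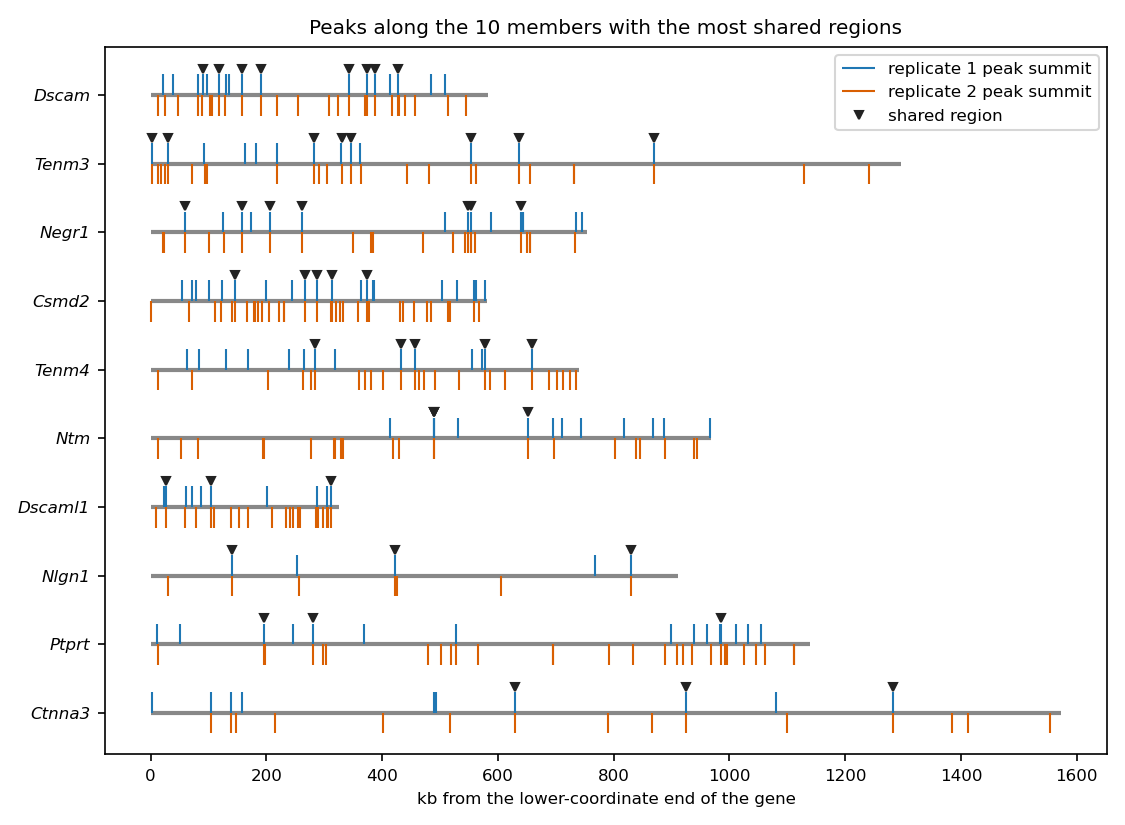
Peak summits of replicate 1 (upper ticks) and replicate 2 (lower ticks) and shared regions (triangles) along the 10 genes with the most shared regions (of 6 genes with 3 regions each, the 4 with the highest density are drawn), in kb from the lower-coordinate end. *Dscam* carries 8 triangles on 584 kb, and *Tenm3* carries 8 on 1297 kb.

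The place of the regions along the genes was described next. In the 31 genes of known strand, 28 of 65 regions lay in the 5′ 50% of the gene and 37 in the 3′ 50%, with a median position 58.5% of the way from the 5′ end, beside 49.7% for 585 regions in like-length genes. The median distance to a listed start was 283 kb, with a range of 3.09 to 1123 kb, and the nearest was in *Lsamp*. Distances grow with gene length, and the median in like-length genes, each counted once, was 145 kb. No shared region lay within 2 kb of a listed start of these genes, where 1.92% of 16426 other genes with a listed start had one. At that share fewer than 1 gene in 31 would be counted, so the 0 says nothing particular of these genes. Single-list peaks within 2 kb of a start occurred in 5 of the 31 genes in replicate 1 (*Adgrl1*, *Adgrl3*, *Cntnap2*, *Dscam* and *Lsamp*), a larger share than the 6.43% of other genes. In replicate 2 they occurred in 4 of the 31 (*Ctnna3*, *Lsamp*, *Nrxn3* and *Ntm*), a smaller share than 16.2%. The lists thus went opposite ways, on few genes. The starts concerned in *Cntnap2* in replicate 1, and in *Lsamp*, *Nrxn3* and *Ntm* in replicate 2, were internal ones, far from the 5′ end of the gene. *Lsamp* was on both lists through peaks at different starts, 633 bp downstream in replicate 1 and 918 bp upstream in replicate 2. The *Ctnna3* peak printed above and a peak 253 bp upstream of an internal start of *Nrxn3* (fold 3.81) were the 2 that reached the 300-base windows, where 3.32% of other genes had one in replicate 2. The *Nrxn3* peak only touched the edge of its window, which begins 250 bases before the start, and its summit lay outside.

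Motifs were searched in the same 300-base windows on both strands, with any overlap counted once per window. TAATTA, which is its own reverse complement, was in 2 of 48 member windows (4.17%), against 5.29% of all 32851 windows. CACGTG, the E-box bound by MNT and also its own reverse complement, was in 2 (*Cadm2* and *Ptprs*), against 7.15%. TGTGGT or its reverse ACCACA, a RUNX core, was in 3 (*Adgrl2*, *Adgrl3* and *Cadm2*, or 6.25%), against 16.8%. These are matches of letters and say nothing of binding.

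A further list of 35 synaptic adhesion genes, 6 of them on the X chromosome, was counted in the same way. It held 73 and 127 peaks in replicates 1 and 2 and 27 shared regions on 11.3 Mb, or 0.646, 1.12 and 0.239 (0.158 to 0.348) per 100 kb. The X chromosome held few peaks, and all 42 genes are autosomal. The 29 autosomal genes of the list had 0.897 (0.698 to 1.14), 1.55 (1.28 to 1.85) and 0.325 (0.210 to 0.480) per 100 kb, higher than the 42 with overlapping intervals. Of the 29, 11 (37.9%) held a shared region, against 15.2% of all autosomal coding genes outside the 42. The median length of the 29 was 69.9 kb, far below that of the 42 but above the 17.6 kb of autosomal coding genes. No genes of like length were set beside this list, so the 37.9% is not adjusted for length. *Ptprm*, a homophilic receptor phosphatase of the family of *Ptprt*, held 23 and 28 peaks and 9 shared regions on 688 kb, and its relative *Ptprk* held 1 and 0 on 523 kb. *Lrfn2*, a synaptic leucine-rich repeat protein, held 6 and 11 peaks and 4 shared regions, and *Cadm3* held 3 and 5 peaks, with 3 shared regions on 36.2 kb. These 4 genes were picked after their values were seen.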

How the data were processed

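DLX2 CUT&Tag was run on 2 samples of E12.5 maxillary process. Per the labels, tools were Trim Galore 0.4.5, Bowtie 1.1.2 and MACS2 2.2.7; the study's methods name bowtie2 and mm10, and describe transposase tagging where the labels describe sonication. The caller's settings and read totals are not given in the sources used here, so library depth is unknown. Each deposited list was called on 1 sample and gives, per peak, the score, the fold (a ratio over the local background), −log10 p and −log10 q made by the authors' caller. The lowest deposited −log10 q was 1.00 in both lists, so weak peaks are included.

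Peaks were placed in a gene by summit, and shared regions (at least 1 bp common to both lists) by midpoint, within RefSeq GRCm38.p6 extents. Of the annotated genes 49603 were kept, those listed before position 3000000 being left out. Each gene was set beside the 25 autosomal coding genes nearest in log length, and X was left out of these. Intervals are exact Poisson for counts and Wilson for shares, at 95%, and cover counting error only. For some genes at 0 the density that 3 counts would give is quoted as a scale, which lies below the exact Poisson upper limit. Fragments at a summit were recovered from fold and p, with a tolerance of 0.001. No test was run, because there is 1 group and no control. Genes named were the 10 with most shared regions (ties by density), the 6 highest and 6 lowest of 100 kb or more against genes of like length, those with none, and the nested pair; regions named were the 8 ranked first by the lower of their folds. Genes added after their values were seen are marked, and other members are named by role. The members and lists were chosen with earlier results of these data known. Promoter and microRNA sequences are from RefSeq (GRCm38.p6): 31 of 42 members matched the promoter table. Region sequences, planned at first, are not shown, as no genome was used. Counting was tested on simulated peaks. Counts and intervals used scipy 1.17.1 with pandas 2.3.3 and numpy 2.4.6 in Python 3.11.15, and figures used matplotlib 3.10.9. Alternatives were a filter on q, p or fold, the overlap required (for role groups, added after the data were seen), other like-length sets and leaving out each replicate.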

Additional observations from a re-analysis of the deposited data

How the results depend on the processing

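Of the 73 alternative values of the comparisons, 46 moved by less than their counting interval or stayed within 1.5-fold, 25 moved further and 2 changed direction. Both that changed direction were ratios of the members' sum to medians, for which 1 does not mark equal density. Filters moved densities most, since weak peaks make up most of each list. A −log10 q of at least 5 left 0.0779 peaks per 100 kb in replicate 1, 0.147 in replicate 2 and 0.0419 shared regions, with 11 genes holding a shared region and 11 above the median of like-length genes, whose medians were then 0. A fold of at least 5 left 0.243, 0.299 and 0.0928 per 100 kb, with 20 genes holding a shared region. A −log10 p of at least 7 left 0.156, 0.341 and 0.0749, with 18 genes. Requiring at least 50% of each peak to be shared left 0.120 shared regions per 100 kb.

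The ratio of members to like-length means fell from 0.735 to 0.553 with −log10 p of at least 7, to 0.551 with 50% overlap and to 0.468 with like-length genes of the same chromosome. The ratio to medians, 1.12, fell below 1 with 50% overlap (0.943) and with the same chromosome (0.801), where the comparison genes of the members over 1 Mb were shorter by construction (median 488 kb in place of 1203 kb). The share of replicate 1 peaks met by replicate 2 was 53.8% at −log10 q of at least 5, 48.1% at −log10 p of at least 7 and 17.6% at 50% overlap, and the share of replicate 2 peaks met by replicate 1 was 28.6% at that q, 30% at a fold of at least 5 and 9.26% at 50% overlap.

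Without replicate 1 or replicate 2 the shared regions are the peaks of the other list. The density was then 0.680 to 1.29 per 100 kb, the number of genes with at least 1 was 35 to 39, the number above the like-length median 18 to 21, the ratio to means 0.783 to 0.807 and the ratio to medians 1.14 to 1.22. For 25 single genes under 8 alternatives each, 84 of 200 values moved. Leaving out a replicate, which can only raise a count of shared regions, gave 37 of these, and of the other 47 all fell but 1 (*Nrxn2*, from 0 to 1 with the extent widened by 10 kb). *Dscam* fell from 8 to 1 under each of the 3 filters on peak strength. Matching on GC content and motif shares in the shared regions were not run, since no genome was used here. No paired analysis was possible because the 2 samples form 1 group.

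Peak counts are small: 25 genes rest on 1 to 3 shared regions and each region on a median of 6 fragments in replicate 1, so orders between single genes are loose. Without a control library, enrichment over background was not measured here.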
